A study of Mus musculus with 8 samples.

Results

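The SOX transcription factors of the mouse ventricle described here were 7 genes, Sox7, Sox17, Sox18, Sox9, Sox4, Sox5 and Sox6, taken by gene name from the 43346 genes of a table of RNA sequencing counts. The table holds 20 genes of the family, with Sry counted. Ventricles came from 8 male C57BL/6 mice. At 7 weeks of age 4 mice were injected under the skin of the flank with 1000000 LLC1 cells, a line derived from Lewis lung carcinoma of this strain (tumor-bearing mice), and 4 received the PBS vehicle (PBS-injected mice). All were sampled on day 14. The labels name no transgene or deletion, each library is 1 mouse, and mice are named by group and label code (LLC1 1-2, 1-3, 1-5 and 2-2, and PBS 1-1, 1-3, 2-1 and 2-5). The comparison asks which of these genes differed in the ventricle of mice with a tumor elsewhere in the body.

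SOX proteins bind DNA through a high-mobility-group domain, which bends the helix at short sites, and they mostly act together with partner factors. SOX7, SOX17 and SOX18 form the SOXF group, which is expressed in endothelium and acts in vessel growth, arterial identity and lymphatic development. SOX9 directs cartilage formation and is also used by valve and stromal cells of the heart. SOX4 is a SOXC protein of progenitor and stressed cells, and SOX5 and SOX6 are SOXD proteins without an activation domain of their own, which assist SOX9 in cartilage. SOX6 also represses slow-fiber genes in skeletal muscle.

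Libraries held 15342214 to 19747596 counts in the tumor-bearing mice and 12480706 to 16192158 in the PBS-injected mice. Levels are given as counts per 1000000 (CPM) after TMM scaling, which corrects for differences in library composition. The first principal component of log2 CPM, with 31.5% of the variance, separated the groups, and on the second, with 25.2%, PBS 1-1 stood apart from the other mice. Cardiomyocyte markers summed to 107187 to 115732 CPM in tumor-bearing mice and 97518 to 98413 CPM in PBS-injected mice, so the tissue carried the markers of its label.

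In tumor-bearing mice 3 of the 7 SOX genes fell, and none rose. These were Sox9, to 0.471 of the PBS level, Sox4, to 0.532, and Sox7, to 0.599. Sox17, Sox18, Sox5 and Sox6 did not pass the test. A gene was called when its adjusted p (FDR, edgeR quasi-likelihood test with Benjamini-Hochberg adjustment over the 16111 genes tested) was under 0.05. Of all genes tested, 8.73% were called in either direction and 4.61% were called lower. This background moved with single mice, from 1406 genes called with all 8 mice. Without LLC1 1-2, 1-3, 1-5 and 2-2 it was 751, 634, 712 and 832 genes. Without PBS 1-1, 1-3, 2-1 and 2-5 it was 1949, 542, 955 and 1637 genes. Each Sox4 or Sox9 call lost below was lost in a fit with 542 to 832 genes called. Among those fits, Sox4 was still called without PBS 1-3 and without LLC1 2-2 (edgeR FDR = 0.0417 and 0.0322). Sox9 was still called without LLC1 1-3 (edgeR FDR = 0.0444). The median log2 fold change, tumor-bearing over PBS-injected, was -0.25 over the 7 SOX genes and -0.01 over all genes tested. In Sox9, Sox4 and Sox7 every tumor-bearing mouse was below every PBS-injected mouse, a separation seen in 8.27% of all genes tested. The exact permutation p of each of the 3 was 0.0286, the smallest that the 70 arrangements of 8 mice allow. In bulk tissue, fewer cells of a type and less RNA per cell cannot be told apart.

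**Figure D1:**
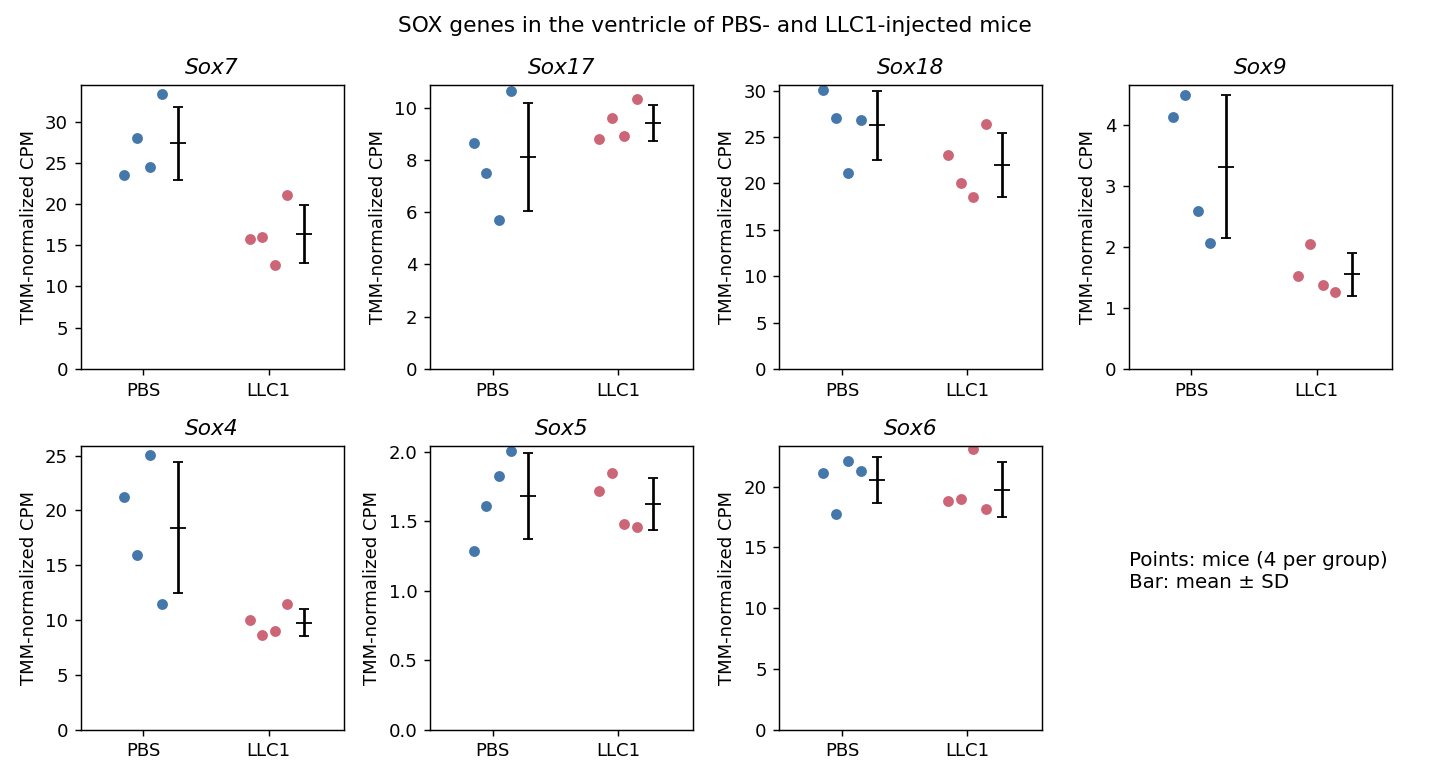
TMM-normalized CPM of the 7 SOX genes in each mouse (points), with the group mean and SD (bars), 4 mice per group. Sox7, Sox9 and Sox4 have no overlap between groups, while the other 4 genes overlap.

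Sox7, on the forward strand at chr14:63943674-63950732 (mm10), is a SOXF gene of endothelial cells. Its level was 15.8, 16.0, 12.6 and 21.1 CPM in LLC1 1-2, 1-3, 1-5 and 2-2. In PBS 1-1, 1-3, 2-1 and 2-5 it was 23.5, 27.97, 24.5 and 33.4 CPM. The highest tumor-bearing mouse, LLC1 2-2, stayed under the lowest PBS-injected mouse, PBS 1-1. Means were 16.4 ± 3.53 CPM (SD, n = 4) and 27.4 ± 4.46 CPM (SD, n = 4), and the log2 fold change was -0.74 with an SE of 0.15 and a 95% interval of -1.07 to -0.41 (edgeR FDR = 0.0133). Behind these levels stood 230 to 566 counts per mouse. Sox7 was called in 8 of the 8 fits that left out 1 mouse, with an FDR of 0.00501 to 0.0452.

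Sox17, on the reverse strand at chr1:4490931-4497354, is a SOXF gene of arterial endothelium. It was measured at 8.80, 9.61, 8.92 and 10.3 CPM in the 4 tumor-bearing mice, in the order given above. The PBS-injected mice had 8.67, 7.50, 5.71 and 10.6 CPM. The tumor-bearing mice lay within the spread of the PBS-injected mice, whose highest, PBS 2-5, was the highest of all 8. Means were 9.41 ± 0.702 CPM and 8.13 ± 2.06 CPM (SD, n = 4 each), and the log2 fold change of 0.22, with a 95% interval of -0.14 to 0.57, did not pass the edgeR test (FDR = 0.439). It was 0.07 without PBS 2-1 and 0.38 without PBS 2-5, and was not called in either. This interval does not hold a fall of the size seen in Sox7. Exons of Sox17 share 16.8% of their bases with Gm37587 on the opposite strand, which itself had 3 to 9 counts per mouse.

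Sox18, on the reverse strand at chr2:181669836-181671640, is the SOXF gene best known for lymphatic development. Tumor-bearing mice had 23.0, 20.1, 18.5 and 26.4 CPM. In the PBS-injected mice the levels were 30.0, 27.1, 21.1 and 26.8 CPM. The groups overlapped, with PBS 2-1 below both LLC1 1-2 and LLC1 2-2. Means were 21.99 ± 3.47 and 26.2 ± 3.75 CPM (SD, n = 4 each), and the log2 fold change of -0.25 (95% interval -0.53 to 0.03) did not pass the edgeR test (FDR = 0.244).

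Sox9 is on the forward strand at chr11:112782224-112787760. It was one of the transcripts the study named from these same mice, so its direction here is not independent evidence. Its level was 1.52, 2.04, 1.37 and 1.26 CPM in the tumor-bearing mice, from 23, 31, 25 and 25 counts. The PBS-injected mice had 4.12, 4.49, 2.59 and 2.07 CPM, from 48, 64, 44 and 35 counts. PBS 1-1 and PBS 1-3 stood high, whereas PBS 2-5 was almost level with LLC1 1-3. At this depth those mice could not be told apart, since the exact Clopper-Pearson 95% intervals, which cover counting error only, were 1.39 to 2.90 CPM for LLC1 1-3 and 1.44 to 2.87 CPM for PBS 2-5. Means were 1.55 ± 0.347 and 3.32 ± 1.17 CPM (SD, n = 4 each), and the log2 fold change was -1.09 with an SE of 0.27 and a 95% interval of -1.68 to -0.50 (edgeR FDR = 0.0299). The call was lost in 4 of the 8 fits that left out 1 mouse, with an FDR of 0.0745 without LLC1 1-2, 0.0838 without LLC1 1-5, 0.0804 without LLC1 2-2 and 0.0965 without PBS 1-3. The log2 fold change in the 8 fits was -1.27 to -0.90.

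Sox4, a gene of 1 exon on the reverse strand at chr13:28948919-28953713, is used by progenitor cells and is induced in many tissues by transforming growth factor beta. Tumor-bearing mice had 9.99, 8.63, 8.97 and 11.4 CPM. PBS-injected mice were spread more widely, with 21.2, 15.9, 25.1 and 11.5 CPM. PBS 2-5 was barely above LLC1 2-2, and the other 3 PBS-injected mice were well above every tumor-bearing mouse. Means were 9.75 ± 1.25 and 18.4 ± 5.97 CPM (SD, n = 4 each), and the log2 fold change was -0.91 with an SE of 0.20 and a 95% interval of -1.35 to -0.47 (edgeR FDR = 0.0193). The call was lost in 3 of the 8 fits that left out 1 mouse, with an FDR of 0.0520 without LLC1 1-2, 0.0631 without LLC1 1-3 and 0.0581 without LLC1 1-5. The log2 fold change in the 8 fits was -1.09 to -0.72, and it was -0.92, -0.86 and -0.87 in those 3.

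Gm26735, on the opposite strand, shares 2616 bases, or 54.6%, of the Sox4 exon. The library kit does not mark strand, so reads of either gene cannot be told apart in those bases, and how such reads were counted is not given in the sources used here. Its own counts, 80 to 265 per mouse, gave 5.81 ± 0.567 and 11.05 ± 3.32 CPM (SD, n = 4 each) in tumor-bearing and PBS-injected mice, and the log2 fold change was -0.93 (edgeR FDR = 0.0129).

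The 250 bases upstream of the RefSeq start site of Sox4 (chr13:28953699) are shown. Sox4 was the only gene that fell among the 3 of the 7 (Sox4, Sox5 and Sox6) with an entry in the RefSeq promoter table. The bases shown lie at chr13:28953700-28953949 (GRCm38.p6, reverse strand, written 5′ to 3′), with matches to CCAAT on either strand in capitals. The last of them, 28953700 to 28953713, lie inside the Sox4 exon given above, which begins further upstream than the RefSeq start site.

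Sox4: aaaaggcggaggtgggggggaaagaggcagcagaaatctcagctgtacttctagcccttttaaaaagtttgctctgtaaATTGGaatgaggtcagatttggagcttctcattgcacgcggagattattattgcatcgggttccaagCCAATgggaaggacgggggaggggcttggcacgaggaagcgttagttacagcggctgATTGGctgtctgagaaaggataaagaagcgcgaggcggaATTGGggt

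This window holds 4 matches to CCAAT, read as CCAAT or its reverse complement ATTGG. The last match lies in the bases that are inside the exon. At least 1 match was present in 33.8% of the 32851 mouse promoter windows of this length, and 4 or more in 0.840%. The window has no match on either strand to the TATA box TATAAA, present in 12.4% of windows, or to the SOX-type words AACAAT and ACAAAG, present in 9.42% and 16.5%. A match describes these letters and was not tied to binding in these mice.

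Sox5 and Sox6, the SOXD genes, gave values close to each other between groups. Sox6 (chr7:115471344-116038744, reverse strand) had 18.8, 19.0, 23.1 and 18.2 CPM in the tumor-bearing mice. Its level was 21.1, 17.7, 22.1 and 21.3 CPM in the PBS-injected mice. LLC1 1-5 was the highest of all 8 mice and PBS 1-3 the lowest, so the groups overlapped throughout. Means were 19.8 ± 2.25 and 20.5 ± 1.92 CPM (SD, n = 4 each), with a log2 fold change of -0.06 and the narrowest 95% interval of the 7 genes, -0.28 to 0.16 (edgeR FDR = 0.766). It was -0.14 without LLC1 1-5, -0.13 without PBS 1-3 and -0.02 without LLC1 2-2 or PBS 2-1, and was not called in any of these.

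Sox5 (chr6:143828425-144781977, reverse strand) was near the lower limit of what this depth measures, with 15 to 34 counts per mouse. Its exons share 9.25% of their bases with the antisense gene Sox5os1, which had 0 to 2 counts per mouse. Tumor-bearing mice had 1.72, 1.84, 1.48 and 1.46 CPM and PBS-injected mice 1.29, 1.61, 1.82 and 2.01 CPM. PBS-injected mice were both the lowest and the highest of the 8. The log2 fold change of -0.08 (95% interval -0.51 to 0.36, edgeR FDR = 0.846) covers both a fall and a rise of moderate size.

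**Figure D2:**
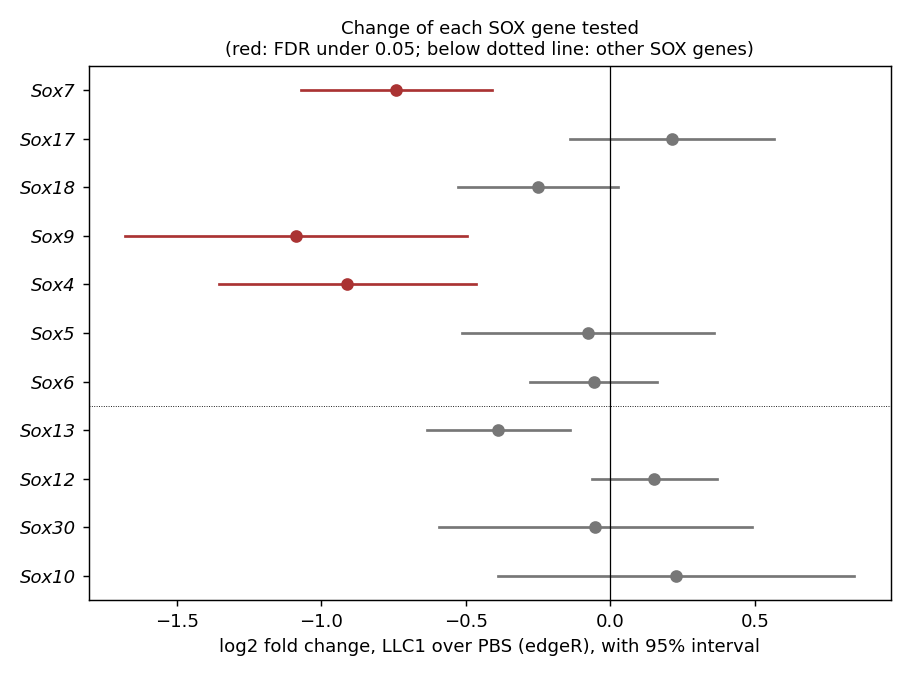
Log2 fold change, tumor-bearing (LLC1) over PBS-injected mice, of the 7 SOX genes and, below the dotted line, the 4 other SOX genes that were tested, with edgeR 95% intervals. Only the intervals of Sox7, Sox9, Sox4 and Sox13 lie entirely below 0, and of these Sox13 has an FDR of 0.0545.

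Of the 13 other genes of the family in the table, 4 had enough counts to be tested and 0 were called by edgeR, with 1 (Sox13) at an unadjusted p under 0.05. Sox13, the third SOXD gene, had 17.1 ± 0.948 CPM in tumor-bearing and 22.4 ± 3.77 CPM in PBS-injected mice (SD, n = 4 each), with no overlap and a log2 fold change of -0.39 (edgeR FDR = 0.0545). Sox12, a SOXC gene like Sox4, had a log2 fold change of 0.15 (edgeR FDR = 0.360). Sox10, a gene of Schwann cells and a SOXE gene like Sox9, had 0.23 (edgeR FDR = 0.654), and Sox30 had -0.05 (edgeR FDR = 0.929). The other 9 had at most 14 counts in any mouse, and 4 of them had none.

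Levels of different genes were compared per kilobase of the gene length in the deposited file. In PBS-injected mice the order of the 7 was Sox18 (16.2 ± 2.31 CPM per kilobase), Sox7 (8.30 ± 1.35), Sox4 (3.84 ± 1.24), Sox6 (2.32 ± 0.216), Sox17 (1.70 ± 0.432), Sox9 (0.802 ± 0.283) and Sox5 (0.117 ± 0.0215; SD, n = 4). Neighbours in this order overlapped between mice for Sox4 with Sox6 and for Sox6 with Sox17, and the other neighbours did not. In tumor-bearing mice Sox4, at 2.03 CPM per kilobase, came after Sox6, at 2.23, and overlapped with it and with Sox17, at 1.97. The other places were as in PBS-injected mice. The full length was used for each gene, although 54.6% of the Sox4 exon and 16.8% of the Sox17 exon bases overlap a gene on the opposite strand. How reads in those bases were counted is not given. The levels per kilobase of Sox4 and Sox17, and their places beside Sox6, therefore depend on an unknown setting. The place of Sox6 depends on its length, 8852 bases in the file and 14832 exon bases in GENCODE M21. With the latter, an alternative chosen after the values were seen, Sox6 was at 1.38 CPM per kilobase in PBS-injected and 1.33 in tumor-bearing mice, after both Sox4 and Sox17 in each group, with overlap with Sox17 in the PBS-injected mice.

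**Figure D3:**
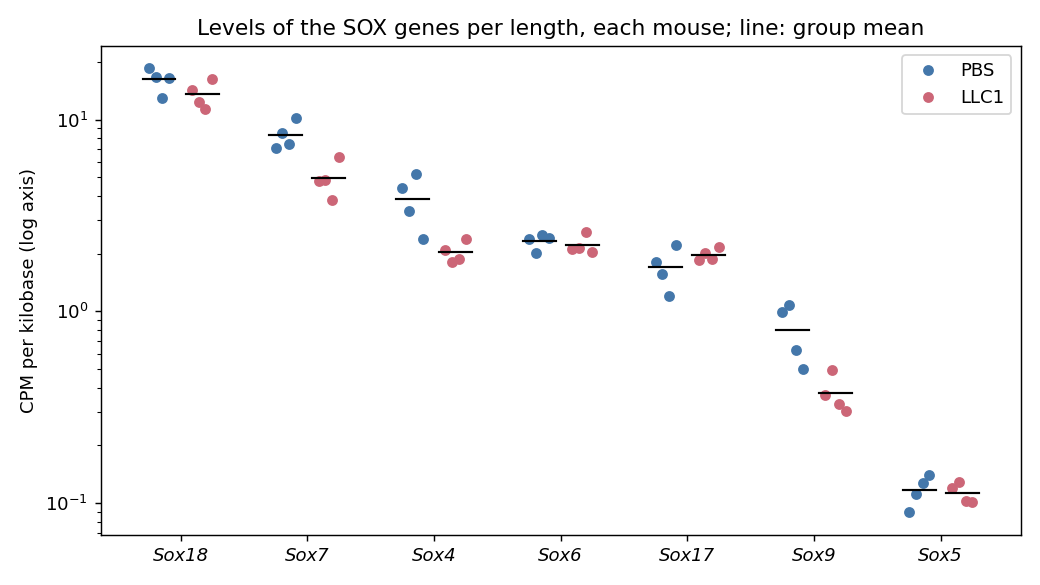
CPM per kilobase of the gene length in the file (log axis) of the 7 SOX genes in each mouse, ordered by the PBS mean, with a line at each group mean. Sox18 leads in both groups, Sox5 is last at 0.117 CPM per kilobase in PBS-injected mice, and Sox4 moves from 3.84 to 2.03.

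The make-up of the SOXF group was also expressed as shares, a choice made after the values were seen. Sox7 made up 24.1 ± 1.68% of the summed CPM per kilobase of the 3 genes in tumor-bearing mice (22.3 to 25.8%) and 31.8 ± 4.15% in PBS-injected mice (25.9 to 35.1%; exact permutation p = 0.0286, the smallest possible, unadjusted). Sox17 made up 9.73 ± 1.13% and 6.43 ± 0.962% (SD, n = 4 each; exact permutation p = 0.0286, unadjusted), a share that also moves with Sox7, while the level of Sox17 itself did not pass the test. Sox18 made up 66.2 ± 1.64% and 61.8 ± 4.32%, with overlap (exact permutation p = 0.143). The sum itself was 20.5 ± 3.27 CPM per kilobase in tumor-bearing and 26.2 ± 3.16 in PBS-injected mice, which missed the threshold of 0.05 (exact permutation p = 0.0571).

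Sox9 was set beside each SOXF gene, of which Sox7 alone passed the test, by the log2 ratio of their CPM within each mouse, in 3 two-sided exact permutation tests. The ratio of Sox9 to Sox7 differed between groups by -0.25, with a range of -3.94 to -2.90 in tumor-bearing and -3.94 to -2.48 in PBS-injected mice, so no difference in their changes was detected (exact permutation p = 0.543, adjusted over the 3 tests 0.543). This difference rests on single mice, being -0.04 without LLC1 2-2, -0.06 without PBS 1-1, -0.10 without PBS 1-3, -0.38 without LLC1 1-3 and -0.54 without PBS 2-5. Against Sox17 the ratio was -2.53 ± 0.31 in tumor-bearing and -1.29 ± 0.69 in PBS-injected mice (SD, n = 4 each), a difference of -1.24 (exact permutation p = 0.0571, adjusted 0.0857). Against Sox18 it was -3.73 ± 0.43 and -2.99 ± 0.45, a difference of -0.74 (exact permutation p = 0.0571, adjusted 0.0857). In both, PBS 2-5 lay among the tumor-bearing mice and the other PBS-injected mice lay above all of them. Neither difference passed the threshold. Label codes begin with 1 or 2, a number whose meaning is not stated. Among code-1 mice (3 tumor-bearing, 2 PBS-injected) the ratio of Sox9 differed by -0.54 against Sox7, -1.51 against Sox17 and -0.86 against Sox18, and among code-2 mice (1 and 2) by -0.38, -1.22 and -0.97. Within each code every tumor-bearing mouse was below every PBS-injected mouse for all 3 ratios, although for Sox7 LLC1 2-2 and PBS 2-5 differed by less than 0.01, and no test was run within codes.

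All 21 pairs of the 7 genes were then compared in the same way, a choice made after the values were seen. Only the ratio of Sox7 to Sox17 had no overlap between groups, at 0.77 ± 0.22 in tumor-bearing and 1.76 ± 0.28 in PBS-injected mice (SD, n = 4 each). It was 0.49 to 1.03 in the former and 1.43 to 2.08 in the latter, a difference of -0.99 (exact permutation p = 0.0286, adjusted over the 21 pairs 0.164). Between Sox4 and Sox9 the ratio differed by 0.14 (exact permutation p = 0.686), and between Sox4 and Sox7 by -0.11 (exact permutation p = 0.8).

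**Figure D4:**
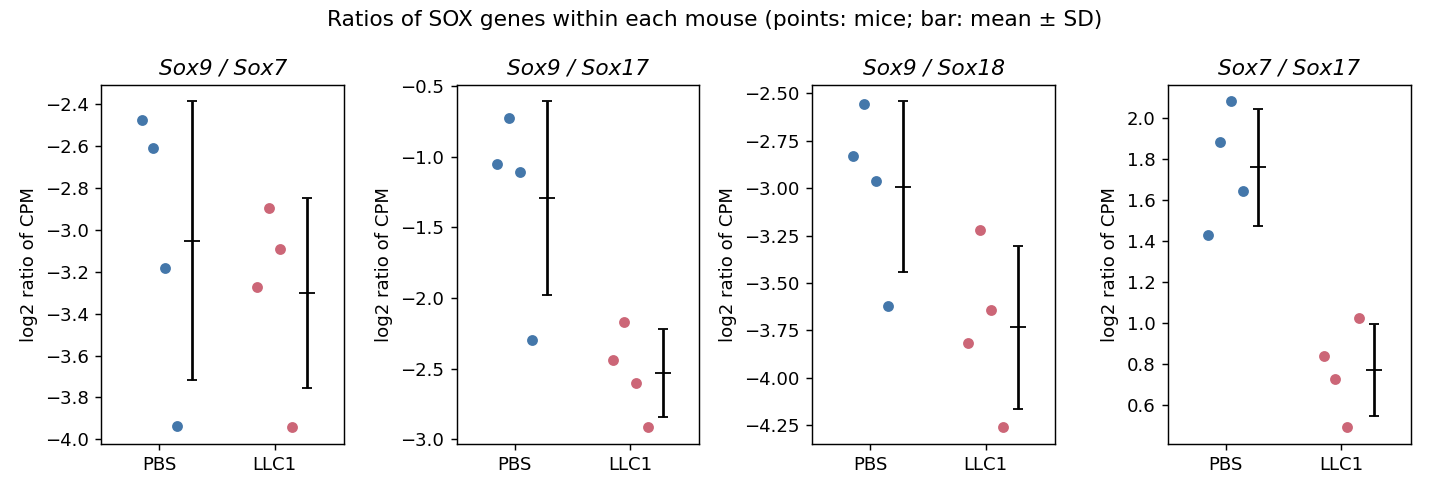
Log2 ratio of the CPM of paired SOX genes within each mouse (points), with the group mean and SD (bars), 4 mice per group, each panel on its own axis. For Sox7 over Sox17 the tumor-bearing mice lie at 0.49 to 1.03 and the PBS-injected mice at 1.43 to 2.08, and in the 3 panels for Sox9 the groups overlap.

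Endothelial cells, in which the SOXF genes are expressed, were followed by a list of markers. Of 15 pan-endothelial markers, all of them tested, Flt1, a receptor that binds vascular endothelial growth factor, rose by a log2 fold change of 0.35 (edgeR FDR = 0.0234). Kdr, the main signaling receptor for the same factor (-0.61, edgeR FDR = 0.00132), Cldn5, a tight junction protein (-0.79, edgeR FDR = 0.0121), and Emcn, a surface sialomucin (-0.31, edgeR FDR = 0.0205), fell, and 11 were not called. The list's median was -0.19, and its summed level was 1425 to 1669 CPM in tumor-bearing and 1537 to 1990 CPM in PBS-injected mice.

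When each SOX gene was expressed relative to the mean log2 CPM of these 15 markers in the same mouse, Sox7 was lower in tumor-bearing mice by -0.55, with no overlap between groups (exact permutation p = 0.0286, adjusted over the 7 genes 0.1). Sox17 was higher by 0.43, also with no overlap (exact permutation p = 0.0286, adjusted 0.1). The value for Sox17 was 0.28 without PBS 2-1. Sox18 differed by -0.06 (exact permutation p = 0.771), a value without a stable sign, at 0.06 without PBS 1-1 and -0.16 without PBS 2-1. Sox9 differed by -0.80 (exact permutation p = 0.0857) and Sox4 by -0.66 (exact permutation p = 0.114), both with overlap. Sox5 and Sox6 differed by 0.16 and 0.13 (exact permutation p = 0.200 and 0.457). Leaving out 1 mouse, the value was 0.10 (without PBS 1-1) to 0.24 (without LLC1 2-2) for Sox5 and 0.02 (without LLC1 1-5) to 0.21 (without LLC1 2-2) for Sox6. An unadjusted p of 0.0286 is the smallest possible here, so no gene could pass 0.05 after adjustment unless at least 5 of the 7 reached it. Relative to fibroblast markers in place of endothelial ones, the difference of Sox7 was -0.34, with overlap (exact permutation p = 0.0571), and that of Sox17 was 0.65 (exact permutation p = 0.0286). Sox9 and Sox4 then differed by -0.59 and -0.45 (exact permutation p = 0.171 and 0.257), and Sox5 and Sox6 by 0.37 and 0.35 (exact permutation p = 0.0571 for each). The change of reference adds the same amount to each gene, since the mean log2 CPM differed between groups by -0.19 for the endothelial and -0.41 for the fibroblast markers.

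Markers of other cells of the ventricle also moved between groups. Of 9 fibroblast markers, 5 fell (Lum, Ddr2, Col3a1, Col1a2 and Col1a1, the largest Col3a1 at -0.98, edgeR FDR = 0.00683), the median was -0.50, and the sum was 1064 to 1176 against 1196 to 1687 CPM. Of 8 dividing-cell markers 5 were tested and 4 fell (Top2a, Mki67, Cdk1 and Birc5), with a median of -2.69. These 4 had no overlap between groups. The sum over the list was 19.1 to 34.0 against 31.5 to 81.7 CPM. Its highest member was Cenpf, with means of 21.5 and 26.6 CPM, which was not called (-0.31, FDR = 0.409). Of 6 immune markers tested, Ptprc and Lyz2 fell, with a median of -0.41, and Mbp rose among 4 Schwann cell markers, with a median of 0.22. Mybpc3 and Myh6 rose among 8 cardiomyocyte markers, with a median of 0.15. None was called of 10 smooth muscle and pericyte markers (median -0.10, lowest FDR for Acta2 and Rgs5 at 0.0595 and 0.113), 5 red cell markers (0.38, Hba-a2 and Hba-a1 at 0.400 and 0.458) and 5 epicardial markers (0.26, Wt1 and Upk3b at 0.451 and 0.502), all by edgeR. Beyond the values relative to endothelial and fibroblast markers above, the part of these markers in the falls of Sox9, Sox4 and Sox7 was not tested.

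Genes linked to SOXF function in vessels were taken as lists. Of 13 arterial and Notch pathway genes, all tested, 2 fell and none rose. These were Unc5b, a netrin receptor of endothelial tip cells (-0.61, edgeR FDR = 0.00476), and Nrp1, a co-receptor for vascular endothelial growth factor and semaphorins (-0.43, edgeR FDR = 0.00501). The Notch ligand Dll4 did not pass the test (-0.35, edgeR FDR = 0.0843), and the list's median was -0.14. Of 6 lymphatic and venous genes none was called, the median was -0.05, and the lowest FDR by edgeR belonged to Pdpn (-0.20, FDR = 0.508) and Flt4 (-0.08, FDR = 0.776).

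Cartilage matrix genes, classical targets of SOX9 with SOX5 and SOX6, were mostly not measurable. Of 13, 3 were tested (Col11a2, Comp and Chad) and none was called, with a median of -0.14 and the lowest FDR by edgeR for Col11a2 (0.17, FDR = 0.600) and Chad (-0.29, FDR = 0.621). Col9a1 and Matn1 had no count in any mouse. Of 7 slow-fiber genes linked to SOX6, 6 were tested and 1 was called. Myh7, the slow myosin heavy chain, rose by a log2 fold change of 0.44 (edgeR FDR = 0.0137), and the list's median was 0.18. The median of the cardiomyocyte markers was 0.15. Of the 6 slow-fiber genes tested, only Tnnt1 was below 0 (-0.25, edgeR FDR = 0.138). Sox6 itself was not called, and a tie between Sox6 and these genes was not tested.

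**Figure D5:**
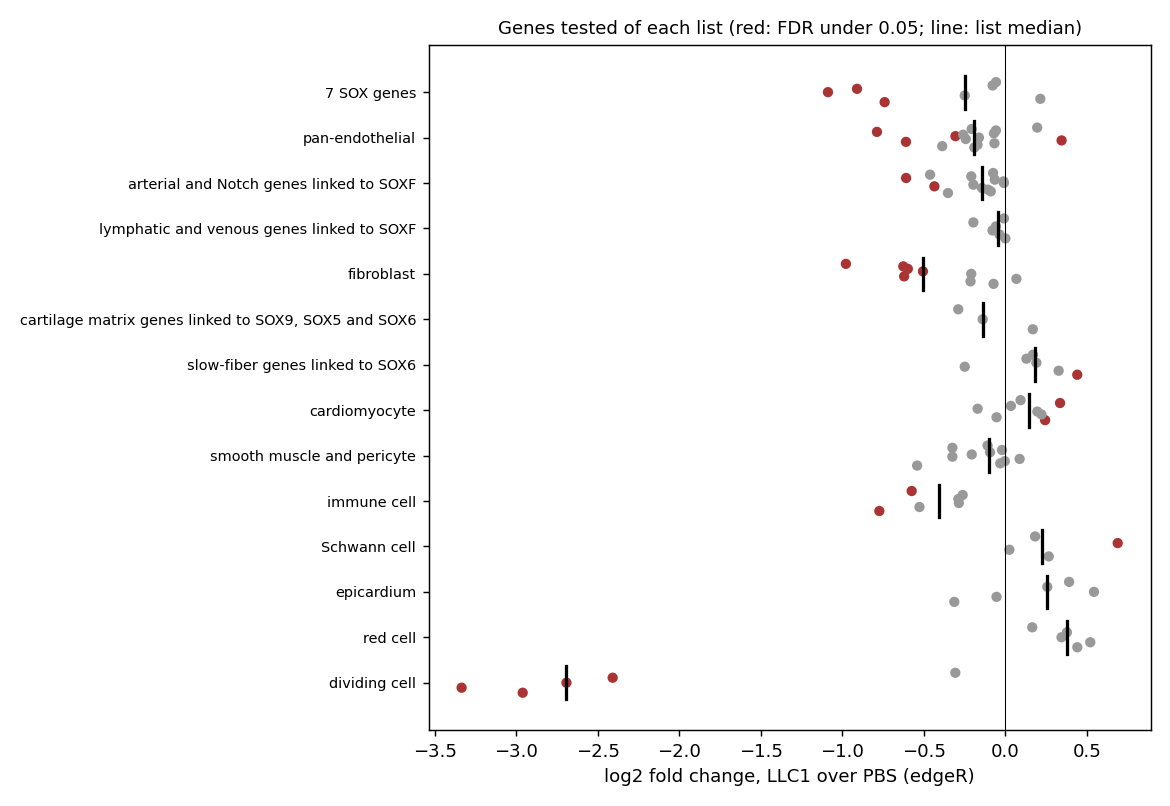
Log2 fold change (edgeR, tumor-bearing over PBS-injected) of the 7 SOX genes and of each gene tested in the 13 lists, with points in red for an FDR under 0.05 and a line at each median. The SOX median of -0.25 lies between those of the pan-endothelial (-0.19) and fibroblast (-0.50) lists, and the dividing-cell list has the lowest median (-2.69).

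The first number of the label code is unequally spread over tumor-bearing and PBS-injected mice. Among code-1 mice, 3 tumor-bearing and 2 PBS-injected, the log2 differences were -1.34 for Sox9, -0.99 for Sox4 and -0.80 for Sox7. Among code-2 mice, 1 and 2, they were -0.82, -0.56 and -0.44. Sox17 was higher in both, by 0.17 and 0.40, whereas Sox18 differed by -0.48 and 0.15, Sox5 by 0.20 and -0.36, and Sox6 by 0.06 and -0.25. With the number as a covariate the edgeR FDR was 0.00502 for Sox9, 0.0241 for Sox4 and 0.00967 for Sox7. Without PBS 1-1, the mouse that stood apart, it was 0.0393, 0.0210 and 0.00501.

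The genes whose standardised log2 CPM over the 8 mice lay nearest to each SOX gene, among 12786 genes, are given as a description. Nearest to Sox7 were Itpr2 and Xkr8, with a mean absolute difference of 0.136 and 0.147 SD. For Sox9 they were Ap3s1 and Abhd17c (0.132 and 0.178), for Sox4 B3gnt2 and Rin2 (0.124 and 0.167), and for Sox17 Trim47 and Safb (0.237 and 0.242). For Sox18 they were Ppp1r9b and Rcn1 (0.228 and 0.286), for Sox5 Mospd3 and Stap2 (0.185 and 0.228), and for Sox6 the nearest was Duox1 (0.213). They were picked on all 8 mice, so their direction between groups follows from the choice and is no separate result.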

How the data were processed

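Total RNA of the ventricles was isolated with miRNeasy kits, made into TruSeq RNA v2 libraries and sequenced as 150-base paired reads on an Illumina HiSeq instrument. The authors deposited whole-number read counts per gene, not normalized, for the mm10 genome. The submitters' processing notes name CASAVA, STAR and featureCounts, while the versions, annotation and strand setting are not given in the sources used here. Columns were matched to mice by their labels. The 8 mice are separate animals, and p-values measure the spread between them.

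Counts were tested with edgeR 4.0.16 in R 4.3.3 (filterByExpr, TMM, glmQLFit and glmQLFTest), with Benjamini-Hochberg adjustment over all genes tested and a threshold of 0.05. The SE is the log2 fold change divided by the square root of F. Ratios used log2 CPM with a prior count of 2 and a two-sided exact permutation test over mice. Exons, overlaps and similar transcripts were read from GENCODE M21 with BLAST 2.17.0, and the longest identical run between any pair of the 7 genes was 29 bases. Promoters came from RefSeq (GRCm38.p6).

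The 7 genes and the lists were chosen with earlier results of these data known. Named were all 7 genes, the other SOX genes tested, list members with an FDR under 0.05 (otherwise the 2 lowest), and the 2 genes nearest each SOX gene, of which 1 is not reported here. Dll4 was named after its values were seen. Alternatives were DESeq2 1.42.0, limma 3.58.1 (voom), edgeR's likelihood ratio and robust tests, other scaling and filters, the code number as a covariate, and each mouse left out in turn.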

Additional observations from a re-analysis of the deposited data

Results flagged for a closer look

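The Sox6 level of LLC1 1-5, 23.1 CPM, stood apart from the other 3 tumor-bearing mice, of which the nearest had 19.0 CPM. Its gap was 0.838 of the group's range, above Dixon's 95% critical value for 4 samples. It was the only one of 14 groups (7 genes in each of 2 groups of mice) beyond that value, and chance takes about 1 in 20 groups past it.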

How the results depend on the processing

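Sox4, Sox7 and Sox9 were called, and the other 4 genes were not, under all 10 alternatives that used every mouse (other tests, scalings, filters and the covariate). Their FDR ranged from 0.000412 to 0.0335 for Sox4, 0.000191 to 0.0198 for Sox7 and 0.00341 to 0.0447 for Sox9. Leaving out 1 mouse, 1 to 3 of the 7 genes were called, with 1 (Sox7) without LLC1 1-2 and without LLC1 1-5. With fibroblast markers as the reference, the difference was -0.34 for Sox7 (exact permutation p = 0.0571) and 0.15 for Sox18 in place of -0.06. This shift is equal for all 7 genes, because the fibroblast mean differed more between groups (-0.41) than the endothelial mean (-0.19). With the GENCODE M21 length, Sox6 was at 1.38 CPM per kilobase in PBS-injected and 1.33 in tumor-bearing mice, in place of 2.32 and 2.23. Leaving out 1 mouse, the Sox9 to Sox7 ratio differed by -0.54 to -0.04, and Sox18 relative to endothelial markers by -0.16 to 0.06. The log2 fold change of Sox5 was -0.17 to 0.013 over the fits that left out 1 mouse, turning positive at 0.013 without PBS 2-5. No paired analysis was possible because the groups share only 1 replicate code (1-3), carried by different mice. Depth limits Sox5 and Sox9, with 15 to 34 and 23 to 64 counts per mouse.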
